A study of Rattus norvegicus with 10 samples.

Results

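Expression of 10 genes that encode ligands, receptors and extracellular regulators of TGF-β and activin signaling was examined in whole mammary glands of rats of the ACI and BN strains under E2. The genes were *Tgfb1*, *Tgfb2*, *Tgfb3*, *Tgfbr1*, *Tgfbr2*, *Tgfbr3*, *Inhba*, *Inhbb*, *Fst* and *Ltbp1*, and every probe set annotated to 1 of these symbols alone, current or former, was retained. These were 14 probe sets of 9 genes, among the 14217 genes that the array annotation names. *Tgfbr2*, which encodes the type II receptor of TGF-β, is named for no probe set in the annotation used here and is not analysed here. For 5 of the 9 genes there were 2 probe sets each, and for 4 genes there was 1.

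The study compared 5 ACI rats (ACI/SegHsd) and 5 BN rats (Brown Norway), all female and all treated with 17β-estradiol (E2) from subcutaneous implants for 12 weeks, starting at 9 weeks of age. Both strains are inbred, and each rat gave 1 Affymetrix rat expression array. Untreated rats are not among these arrays, so the comparison is of strains under E2 and says nothing of the response to it. Values are log2 expression levels per probe set, summarized by the authors with GCRMA, and a log2 fold change is the ACI mean minus the BN mean, given with its standard error (SE). In the extraction protocol of the BN labels the rats are called ACI, although the strain field reads Brown Norway.

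TGF-β ligands are secreted in a latent form, bound to their own propeptide and, through it, to a latent TGF-β binding protein that anchors the complex in the extracellular matrix. Once released, a ligand binds the type II receptor, which recruits and phosphorylates the type I receptor encoded by *Tgfbr1*, and the signal is carried to the nucleus by Smad proteins. Activins are dimers of inhibin β subunits, encoded by *Inhba* and *Inhbb*, that act through their own receptors on the same Smads, and follistatin (*Fst*) binds and neutralizes them. In the mammary gland, TGF-β is known as an inhibitor of ductal growth and epithelial proliferation and as an inducer of matrix genes.

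The arrays were examined before the genes. Within a strain, correlations between arrays were 0.9813 to 0.9947 in ACI rats and 0.9566 to 0.9923 in BN rats, and they were 0.9353 to 0.9599 between strains. BN rats 4 and 5 lay apart from the other BN rats on the second principal component. In the labels, rats 4 and 5 of both strains have IDs beginning with H (ID series H) and rats 1 to 3 have IDs beginning with S (ID series S), and what these letters stand for is not stated there. The strains also differ in the order of deposit, and deposit and strain cannot be told apart. Markers of luminal epithelium were present at high level in all glands, with a mean log2 level over 7 genes of 11.69 to 12.21 in ACI rats and 10.87 to 11.64 in BN rats. Where all rats of a strain were under a log2 level of 4, the probe set is called near background there, and a lower bound of the fold, computed against that level, is given.

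Of the 14 probe sets, 3 were called at an adjusted p under 0.05 from limma, the moderated test fitted across all 31042 probe sets, and all 3 were higher in BN rats. They belong to *Ltbp1*, *Inhbb* and *Tgfbr1*. None was called higher in ACI rats. At an unadjusted p under 0.05 there were 4, the further one being a probe set of *Tgfb2* with the higher level in ACI rats, and by the methods' t-test with Benjamini-Hochberg adjustment there were again 3 toward BN and 0 toward ACI. Over all probe sets, 12.7% were called, 5.87% with the higher level in BN and 6.79% with the higher level in ACI. The rate of calls was higher among brighter probe sets, 24.6% of those with a mean of at least 4, a level that 10 of the 14 probe sets reached. Against that rate, 3 calls are near the background, and the results below are therefore those of single genes and not of the group. The median log2 fold change of the 14 probe sets was -0.08, against 0.00 over all probe sets.

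**Figure D1:**
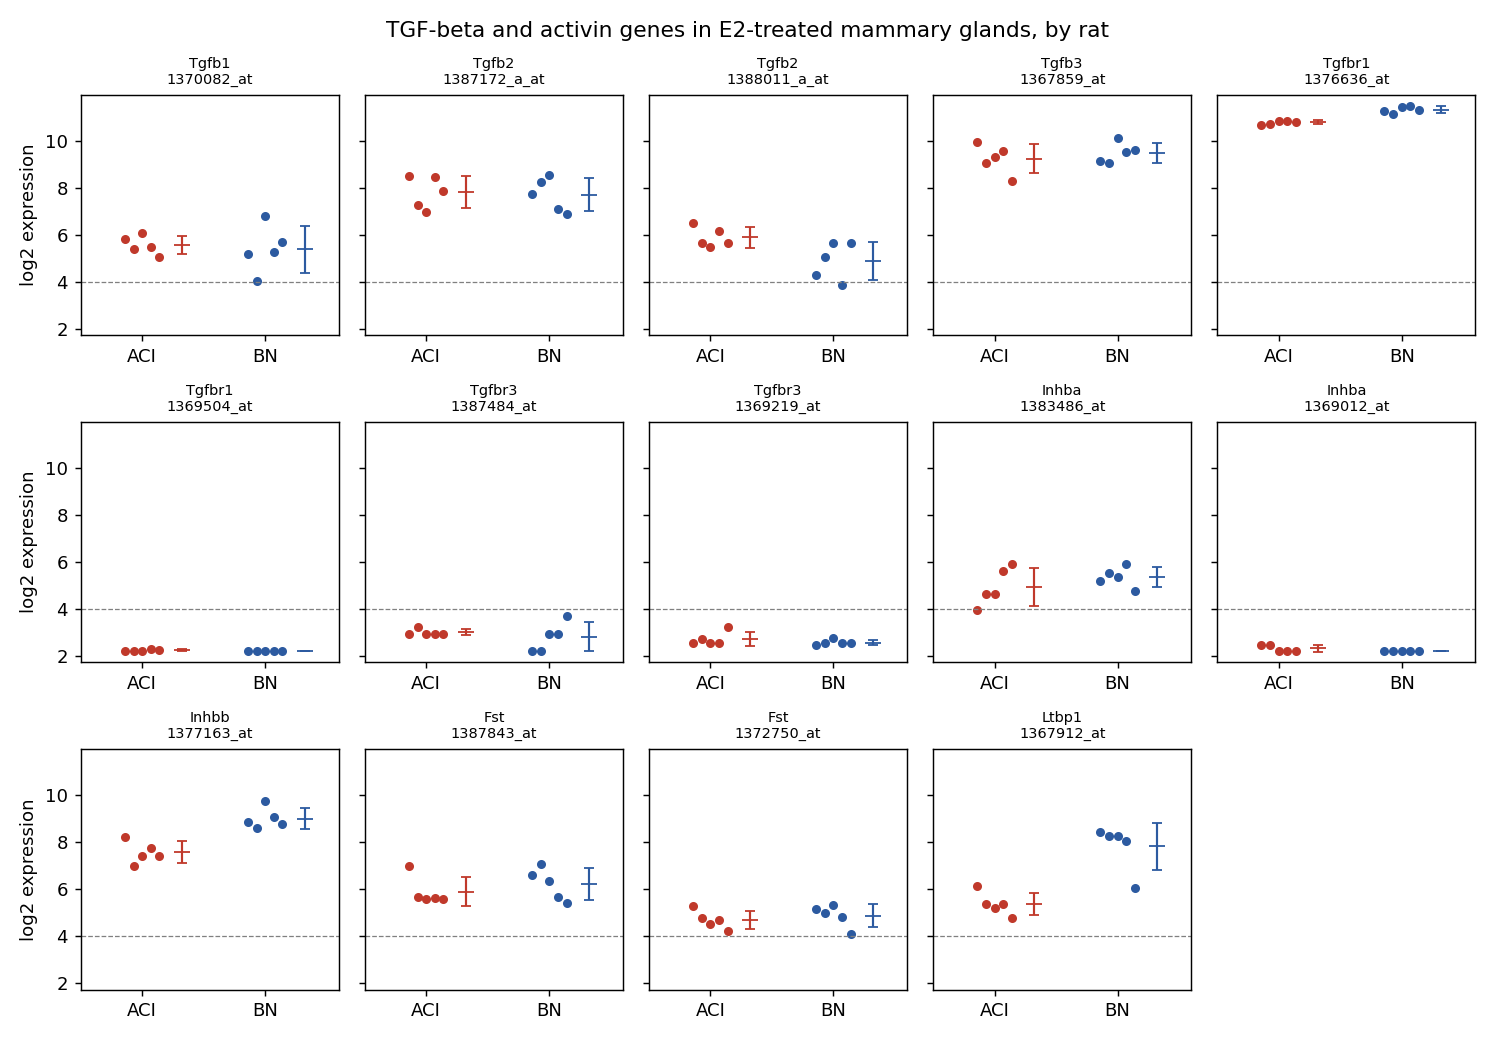
Log2 expression (y axis) of each of the 14 probe sets in 5 ACI rats (red points) and 5 BN rats (blue points), with mean ± SD beside them; the dashed line marks a level of 4. *Inhbb* and the brighter probe set of *Tgfbr1* show no overlap between strains, *Ltbp1* overlaps only through BN rat 5 at 6.06, and 4 probe sets lie under the line in every rat.

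The promoters of the 3 genes that differed are shown because these are the members that moved in one direction. Each is the 250 bases before the annotated start of the gene in RefSeq, build GRCr8, an assembly of the BN strain; the ACI sequence was not analysed here. Capitals mark matches, on either strand, to GGGCGG (a GC box) or CAGAC (the core of a Smad binding element). The AP-1 site, searched as TGANTCA, was in none of the 3 windows. Neither was the palindromic estrogen response element, nor the TATA box, searched as TATAAA.
Ltbp1, chr6:26177302-26177551, minus strand: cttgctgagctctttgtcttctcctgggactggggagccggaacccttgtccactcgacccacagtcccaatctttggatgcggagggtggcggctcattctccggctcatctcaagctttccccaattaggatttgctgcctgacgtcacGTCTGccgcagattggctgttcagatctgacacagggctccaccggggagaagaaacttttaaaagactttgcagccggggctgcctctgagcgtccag
Inhbb, chr13:33089374-33089623, minus strand: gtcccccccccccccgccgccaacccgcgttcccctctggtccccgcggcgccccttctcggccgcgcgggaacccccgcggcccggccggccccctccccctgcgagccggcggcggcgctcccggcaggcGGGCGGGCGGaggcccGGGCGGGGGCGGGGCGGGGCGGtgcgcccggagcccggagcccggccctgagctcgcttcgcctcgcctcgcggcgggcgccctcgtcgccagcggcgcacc
Tgfbr1, chr5:66449148-66449397, plus strand: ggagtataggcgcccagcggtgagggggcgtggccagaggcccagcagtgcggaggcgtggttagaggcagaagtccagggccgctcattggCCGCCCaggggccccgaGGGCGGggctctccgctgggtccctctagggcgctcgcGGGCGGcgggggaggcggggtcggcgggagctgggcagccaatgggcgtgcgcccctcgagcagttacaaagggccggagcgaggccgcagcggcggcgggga

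The 3 windows have few features in common. That of *Inhbb* was 86.8% G and C and held 6 matches to the GC box, several of them overlapping, that of *Tgfbr1* was 75.6% G and C and held 3, and that of *Ltbp1* was 56.8% G and C and held none. The median over all promoters in the table was 51.2%. The only CAGAC match in the 3 windows was that of *Ltbp1*, on the opposite strand, 99 to 95 bases before the start. Of 33469 promoters of the same length, 30.5% held a GC box, 42.9% held CAGAC, 6.34% an AP-1 site, 12.9% a TATA box and 0.0239% the estrogen response element, so that a match to either of the first 2 is common. Promoters of 9 of the 10 members were matched in the table, all but that of *Fst*. Among the others, *Tgfbr2* and *Tgfbr3* held 1 GC box each and *Inhba* a TATA box, and *Tgfb1*, *Tgfb2* and *Tgfb3* held none of the 5 motifs.

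The ligand genes *Tgfb1*, *Tgfb2* and *Tgfb3* did not pass the test. *Tgfb1*, which encodes the isoform studied most widely, had log2 levels of 5.82, 5.38, 6.09, 5.48 and 5.07 in ACI rats 1 to 5, against 5.20, 4.03, 6.81, 5.26 and 5.68 in BN rats 1 to 5. BN rats spanned 2.78 on the log2 scale, from rat 2 to rat 3, and enclosed all ACI rats, which spanned 1.02. The log2 fold change was 0.17 (SE 0.469, adjusted p = 0.985), and its 95% confidence interval of -0.90 to 1.25 includes differences larger than 2-fold toward ACI.

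*Tgfb3*, an isoform expressed in mammary epithelium, had log2 levels of 9.96, 9.04, 9.30, 9.57 and 8.30 in ACI rats, against 9.12, 9.05, 10.10, 9.51 and 9.61 in BN rats. The strains overlapped over most of their range, with the lowest level in ACI rat 5 and the highest in BN rat 3. The log2 fold change was -0.24 (SE 0.329, adjusted p = 0.719), with a 95% confidence interval of -1.0 to 0.51.

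*Tgfb2* was measured by 2 probe sets. The brighter, 1387172_a_at, had log2 levels of 8.50, 7.29, 6.99, 8.47 and 7.85 in ACI rats, against 7.74, 8.25, 8.55, 7.12 and 6.90 in BN rats. Its log2 fold change was 0.11 (SE 0.428, adjusted p = 1.0), and the values of the strains were intermixed. The other, 1388011_a_at, had log2 levels of 6.52, 5.64, 5.48, 6.17 and 5.64 in ACI rats, against 4.30, 5.04, 5.64, 3.86 and 5.64 in BN rats. Here 3 BN rats lay below every ACI rat, and the other 2 BN rats were equal to ACI rats 2 and 5 at 5.64. The log2 fold change was 0.99 (SE 0.398, adjusted p = 0.162; exact permutation test, two-sided p = 0.079), with a 95% confidence interval of 0.08 to 1.90 before adjustment over probe sets. The brighter probe set had a log2 fold change of -0.59 in ID series S and 1.15 in series H, the other 0.89 and 1.16, none of them called.

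*Ltbp1*, which encodes a latent TGF-β binding protein, differed most among the members and was higher in BN rats. Its log2 levels were 6.12, 5.36, 5.18, 5.38 and 4.79 in ACI rats, against 8.45, 8.27, 8.27, 8.07 and 6.06 in BN rats. Of the BN rats, 4 lay close together and above every ACI rat, whereas BN rat 5 fell just under ACI rat 1. The mean was 5.37 ± 0.484 in ACI rats and 7.82 ± 0.995 in BN rats (SD, n = 5 each), a log2 fold change of -2.46 (SE 0.483, adjusted p = 0.0122 from limma), or a 5.49-fold lower level in ACI rats, with a 95% confidence interval of -3.56 to -1.35 on the log2 scale. The exact permutation test over all arrangements of the rats gave a two-sided p of 0.016. Without BN rat 5 the log2 fold change was -2.90 (adjusted p = 0.000469). Within ID series S it was -2.78 (adjusted p = 0.00914) and within series H, with 2 rats per strain, -1.98 (adjusted p = 0.622).

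Of 7 fibroblast markers, 1 was called, *Pdgfra*, higher in BN, where 17.4% of all genes were called in either direction. *Lum* was at -0.05, and the fibroblast mean log2 level was 9.52 to 10.07 in ACI rats, against 9.95 to 11.37 in BN rats, with none near background. Of 6 endothelial markers measured, 3 were called, all higher in BN, with means of 6.68 to 7.46 in ACI rats and 7.86 to 9.00 in BN rats. BN rat 5, which had the lowest *Ltbp1* level of its strain, also had the lowest fibroblast mean of its strain, 9.95, the lowest luminal epithelium mean, 10.87, and the highest skeletal muscle mean, 10.67. Skeletal muscle means were 6.98 to 11.92 in ACI rats and 3.21 to 10.67 in BN rats. The median log2 fold change of the 6 muscle markers measured was 3.99, and none was called. On the array of BN rat 5 the median over probe sets above 4 was 6.88, against 7.22 to 7.30 on the other BN arrays. On it 14067 probe sets were above 4, the fewest of the 10 arrays. All 5 B and plasma cell markers were called higher in BN, with means of 3.03 to 3.23 in ACI rats and 5.19 to 9.82 in BN rats; the lowest of these was in BN rat 3, where *Ltbp1* was at 8.27. In whole glands, fewer cells of a type and less RNA per cell cannot be told apart, and the part of these cell types in the difference was not tested.

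By a rule that takes the 5 genes with the smallest mean absolute difference from *Ltbp1* over the 10 rats, after each gene is centred on its own mean, the most similar patterns were those of *Akap12*, *Sema3e*, *Cklf*, *Nqo2* and *Npy1r*. Their mean differences were 0.264, 0.307, 0.319, 0.331 and 0.333 on the log2 scale, against a median of 1.32 over the 9361 genes compared. In each of these genes BN rat 5 was the lowest BN rat, at 7.79 for *Akap12*, 6.57 for *Sema3e* and 4.14 for *Npy1r*, where the other BN rats were at 8.89, 7.84 and 6.52 or above. The genes were chosen for likeness over these same rats, so the small differences and the low BN rat 5 follow from the rule. *Cklf* and *Npy1r* were near background in ACI rats.

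**Figure D2:**
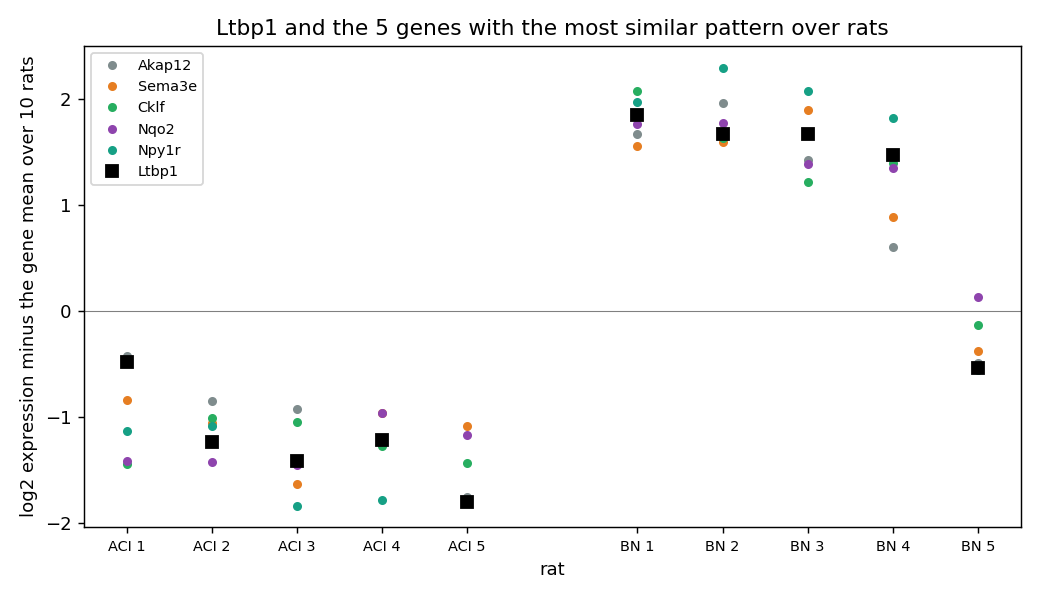
Log2 expression minus the mean of the gene over 10 rats (y axis) for *Ltbp1* (black squares) and the 5 genes of most similar pattern (coloured points), by rat (x axis; ACI rats 1 to 5, then BN rats 1 to 5). BN rats 1 to 4 lie above every ACI rat in each gene, and BN rat 5 is the lowest BN rat in each, falling below ACI rat 1 for *Ltbp1* (6.06 against 6.12 before centring) and *Akap12*.

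*Inhbb*, which encodes the β B subunit of activins and inhibins, was also higher in BN rats. Its log2 levels were 8.24, 6.99, 7.42, 7.76 and 7.42 in ACI rats, against 8.84, 8.61, 9.73, 9.05 and 8.79 in BN rats. Every BN rat lay above every ACI rat, and the gap between the strains was narrow, from 8.24 in ACI rat 1 to 8.61 in BN rat 2. The mean was 7.57 ± 0.465 in ACI rats and 9.00 ± 0.435 in BN rats (SD, n = 5 each), a log2 fold change of -1.44 (SE 0.278, adjusted p = 0.0114 from limma), or a 2.71-fold lower level in ACI rats, with a 95% confidence interval of -2.07 to -0.80. The exact permutation test gave a two-sided p of 0.0079, the smallest that 5 rats against 5 allow. Over all probe sets, 12.3% showed no overlap between the strains, 5.47% with BN above ACI, against 2 of the 14, both with BN above ACI. The fold change was similar in size within each ID series, but was not called there, at -1.51 within series S (adjusted p = 0.129) and -1.33 within series H (adjusted p = 0.21). Of the epithelial markers, 4 of 7 luminal genes and 2 of 7 myoepithelial genes were called higher in ACI rats and none in BN rats, while *Krt19* and *Krt14* had -0.18 and -0.22 without a call. The myoepithelial mean was 8.47 to 8.92 in ACI rats, against 7.80 to 8.43 in BN rats. Over all genes, 8.29% were called higher in ACI and 9.12% higher in BN. Of 7 adipocyte markers, 1 was called, *Adipoq*, higher in BN. The other 6 were not called, among them *Lpl* at 0.00 and *Plin1* at -1.09. Adipocyte means were 9.47 to 10.48 in ACI rats and 10.12 to 10.78 in BN rats. Of 6 T cell markers, 4 were called higher in BN, with list means of 4.48 to 5.24 in ACI rats and 5.54 to 9.27 in BN rats. The part of these cell types in the difference of *Inhbb* was not tested.

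*Inhba*, which encodes the β A subunit, showed no such difference. Its brighter probe set had log2 levels of 3.95, 4.64, 4.64, 5.60 and 5.92 in ACI rats, against 5.21, 5.54, 5.37, 5.90 and 4.78 in BN rats. ACI rats spread more widely, and the highest rat of each strain was at nearly the same level. The log2 fold change was -0.41 (SE 0.393, adjusted p = 0.596), with a 95% confidence interval of -1.31 to 0.49. The second probe set was near background in both strains, at 2.23 to 2.48 in ACI rats and at 2.23, the lowest value of the data, in all BN rats. Whether the strain effects on *Inhbb* and *Inhba* differ from each other was not tested.

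*Fst*, which encodes the activin antagonist follistatin, did not pass the test by either of its probe sets. The brighter, 1387843_at, had log2 levels of 6.99, 5.67, 5.58, 5.63 and 5.58 in ACI rats, against 6.61, 7.07, 6.34, 5.66 and 5.42 in BN rats. In ACI rats 1 animal stood above the other 4, and in BN rats the 3 rats of ID series S lay above the 2 of series H, with means of 6.67 and 5.54. The log2 fold change was -0.33 (SE 0.40, adjusted p = 0.683), with a 95% confidence interval of -1.24 to 0.58. The second probe set, 1372750_at, had a log2 fold change of -0.18 (SE 0.267, adjusted p = 0.771) and again ACI rat 1 as the highest and ACI rat 5 as the lowest of its strain, at 5.27 and 4.23, and BN rat 5 as the lowest BN rat, at 4.08.

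*Tgfbr1*, which encodes the type I receptor of TGF-β, differed by less but with little spread. Its brighter probe set had log2 levels of 10.69, 10.71, 10.86, 10.86 and 10.82 in ACI rats, against 11.25, 11.14, 11.42, 11.49 and 11.30 in BN rats. The strains did not overlap, and the range within a strain was 0.17 in ACI rats and 0.35 in BN rats. The mean was 10.79 ± 0.0823 in ACI rats and 11.32 ± 0.138 in BN rats (SD, n = 5 each), a log2 fold change of -0.53 (SE 0.0703, adjusted p = 0.00185 from limma), or a 1.45-fold lower level in ACI rats (exact permutation test, two-sided p = 0.0079). It was -0.52 within ID series S (adjusted p = 0.0332) and -0.56 within series H (adjusted p = 0.226). The second probe set of *Tgfbr1*, 1369504_at, was near background in every rat, at 2.23 to 2.31, and gives no second reading of this difference.

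*Tgfbr3*, which encodes betaglycan, a coreceptor that presents TGF-β to its receptors and also binds inhibin, was near background by both of its probe sets. Levels were 2.96 to 3.23 in ACI rats and 2.23 to 3.70 in BN rats for 1387484_at, and 2.55 to 3.24 in ACI rats and 2.46 to 2.78 in BN rats for 1369219_at. A difference between strains was not detectable at these levels (adjusted p = 0.73 and 0.596), and no fold is given.

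**Figure D3:**
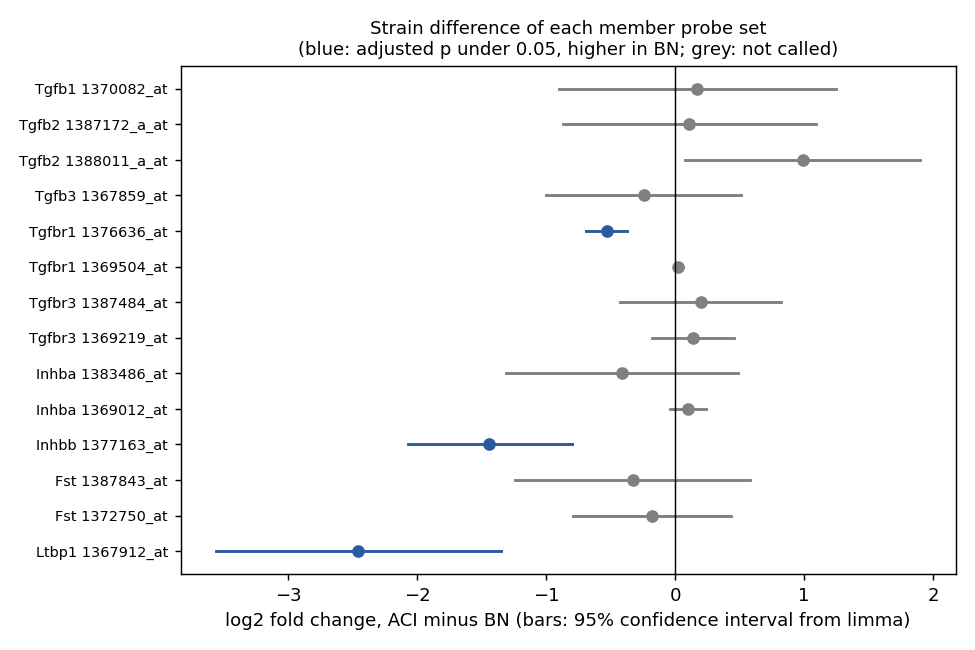
Log2 fold change, ACI minus BN (x axis), of each of the 14 probe sets (y axis), with the 95% confidence interval from limma as a bar; blue marks an adjusted p under 0.05 with the higher level in BN, grey marks probe sets not called. The interval of *Tgfbr1* 1376636_at is the narrowest of the 3 called, -0.69 to -0.37, and that of *Ltbp1* the widest, -3.56 to -1.35.

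For the 10 probe sets that rose above 4 in at least 1 rat, the rats of each strain were ranked. *Tgfb2* and *Fst* are counted here by 2 probe sets each. ACI rat 1 had the highest level of its strain in 7 of them, both probe sets of *Tgfb2* and of *Fst* and those of *Tgfb3*, *Inhbb* and *Ltbp1*, and the lowest in 2, those of *Tgfbr1* and *Inhba*. ACI rat 5 had the lowest level in 5. BN rat 3 was highest in 6 and lowest in none, and BN rat 5 was lowest in 5 and highest in 1. How often the same rats hold these ranks over all probe sets was not examined, so the ranks are not shown to be particular to the members. ACI rat 1 and BN rat 3 also had the highest fibroblast means of their strains, 10.07 and 11.37, and ACI rat 5 and BN rat 5 the lowest, 9.52 and 9.95. The luminal epithelium means had the same 4 rats at their extremes, 12.21 and 11.64 the highest and 11.69 and 10.87 the lowest. No other marker list had all 4 of these extremes. BN rat 3 had the lowest endothelial, adipocyte and T cell means of its strain, 7.86, 10.12 and 5.54. For these lists ACI rat 1 had the highest means of its strain, 7.46, 10.48 and 5.24, and its skeletal muscle mean was the lowest, 6.98. The part of cell content in the order of rats by member level was not tested. No member passed a test of whether the strain difference itself differed between ID series (limma interaction term, lowest adjusted p = 0.18).

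Calls on all 3 genes were made in each of the 10 fits that left out 1 rat, with log2 fold changes of -2.90 to -2.30 for *Ltbp1*, -1.61 to -1.26 for *Inhbb* and -0.58 to -0.49 for *Tgfbr1*. With BN rats 4 and 5 left out together, a setting chosen after seeing the data, they were -2.96, -1.49 and -0.48 (adjusted p = 0.000977, 0.031 and 0.00577).

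Other genes of the pathway were taken from 6 lists, of which 74 of 85 genes were measured, each represented by its probe set with the highest mean. Of the 74, 20 were called higher in BN rats, 6 were called higher in ACI rats and 48 were not called. Over all 14217 genes, 9.12% were called higher in BN and 8.29% higher in ACI. The median log2 fold change over the 74 genes was -0.26, against 0.00 over all genes. Within ID series H only 1 of the 74 was called, *Bmp2* (the 4 arrays of that series gave 100 calls over all probe sets).

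The list of latency and activation, which covers the holding of TGF-β in the matrix and its release, had 12 measured members. Of these, 7 were called higher in BN rats and none in ACI rats, beside 9.12% and 8.29% of all genes. All 12 had a mean of at least 4, and 24.6% of probe sets at that level were called in either direction. *Ltbp2*, described below, is among the 7. So is *Fbn1*, at -1.02 (adjusted p = 0.045 from limma), while its second probe set had -0.27 and was not called. The median log2 fold change of the list was -1.34. *Emilin1*, which encodes a matrix glycoprotein that restrains processing of the TGF-β precursor, had 3.05 ± 0.381 in ACI rats, near background, and 5.19 ± 0.265 in BN rats (SD, n = 5 each), a level at least 2.28-fold lower in ACI rats. *Nrros*, which encodes a protein that tethers latent TGF-β on microglia and macrophages, had a log2 fold change of -1.91 (SE 0.218, adjusted p = 0.000972), and the proteoglycan gene *Bgn* had -1.54 (SE 0.257, adjusted p = 0.00575). Of 7 macrophage markers, 4 were called higher in BN, beside 9.12% of all genes. The means over the 7 were 8.68 to 9.14 in ACI rats and 9.35 to 10.05 in BN rats. *C1qa* and *C1qb* had the opposite sign, at 0.11 and 1.2, without a call (adjusted p = 0.962 and 0.0502 from limma). In ID series S alone *C1qb* was called, at 1.82 (adjusted p = 0.00941). The part of macrophages in the difference of *Nrros* was not tested.

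The paralogs of *Ltbp1* were named after their values had been seen. *Ltbp2*, whose product is a matrix protein that does not bind latent TGF-β, was 5.01 ± 0.158 in ACI rats and 6.43 ± 0.239 in BN rats (SD, n = 5 each), a log2 fold change of -1.41 (SE 0.125, adjusted p = 0.000277). *Ltbp4* was 5.67 ± 0.307 in ACI rats and 6.95 ± 0.203 in BN rats (SD, n = 5 each), a log2 fold change of -1.28 (SE 0.161, adjusted p = 0.00149). In both genes every BN rat lay above every ACI rat, BN rat 5 included. *Ltbp3* had -0.39 (SE 0.144, adjusted p = 0.134). Of the 4 *Ltbp* genes, 3 were called higher in BN rats, beside 9.12% of all genes. The 3 include *Ltbp1* itself, and *Ltbp2* and *Ltbp4* are already counted in the latency and activation list.

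Of the 8 measured genes for other ligands and antagonists of the activin family, 7, among them the inhibin α gene *Inha* and the antagonist gene *Fstl3*, were near background in all rats. *Gdf11* had a log2 fold change of -0.33 (adjusted p = 0.132). None of the 8 was called; for the 7, the arrays could not show a difference. Of 10 genes for activin and BMP receptors and coreceptors, 2 were called, both higher in BN, beside 9.12% of all genes. *Acvrl1*, which encodes the type I receptor ALK1 of endothelial cells, had 3.06 ± 0.408 in ACI rats, near background, and 4.90 ± 0.544 in BN rats (SD, n = 5 each), a level at least 1.86-fold lower in ACI rats. Its adjusted p from limma was 0.00491, or 0.0489 with values under 4 set to 4. It was not called within ID series S alone (adjusted p = 0.0622). *Eng*, which encodes the endothelial coreceptor endoglin, had -1.74 (SE 0.42, adjusted p = 0.0292). The call on *Eng* was kept only without ACI rat 1 (adjusted p = 0.00692) or without BN rat 1 (adjusted p = 0.0474) and lost without any other rat (adjusted p = 0.0501 to 0.0647), as it was without BN rats 4 and 5 together (adjusted p = 0.0934). Of the endothelial markers given beside *Ltbp1*, 3 of 6 were called in the same direction, beside 9.12% of all genes. *Pecam1*, *Emcn* and *Cldn5* were not called. The part of endothelial cells in the differences of *Acvrl1* and *Eng* was not tested.

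Of 16 Smad genes and regulators, 3 were called higher in BN and 1 higher in ACI, beside 9.12% and 8.29% of all genes, with a median log2 fold change of 0.03. *Skil*, which encodes the Smad corepressor SnoN, had a log2 fold change of -0.72 (SE 0.135, adjusted p = 0.00969). *Pmepa1*, a gene induced by TGF-β whose product limits Smad signaling, had -1.75 (SE 0.44, adjusted p = 0.035), and this call was lost without any ACI rat and without BN rat 1 or 2 (adjusted p = 0.0549 to 0.0854). *Smad5*, which encodes a Smad of the BMP branch, had -1.06 (SE 0.249, adjusted p = 0.0264 from limma). Its call was lost when ACI rat 1, 2, 3 or 4 was left out, or BN rat 2 (adjusted p = 0.0513 to 0.0711). Its other 3 probe sets had -0.40, -0.05 and -0.02 and were not called. The probe set at -0.05 was near background in both strains and that at -0.02 in ACI rats, levels at which a difference could hardly show. *Smad7*, which encodes the inhibitory Smad that TGF-β itself induces, was higher in ACI rats at 0.64 (SE 0.172, adjusted p = 0.0446), and its call was kept only without ACI rat 3 (adjusted p = 0.047) or BN rat 2 (adjusted p = 0.0423), and was otherwise lost (adjusted p = 0.0526 to 0.107). It was also lost with quantile normalization (0.0777), a floor at 4 (0.0518), a trended variance (0.0919) and without BN rats 4 and 5 (0.0991), all adjusted p from limma.

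Of 16 genes listed as responsive to TGF-β, 6 were called higher in BN rats and 2 higher in ACI rats, beside 9.12% and 8.29% of all genes. Their median log2 fold change was -0.76. *Fn1*, the fibronectin gene, was 9.10 ± 0.199 in ACI rats and 11.07 ± 0.348 in BN rats (SD, n = 5 each), a log2 fold change of -1.96 (SE 0.175, adjusted p = 0.000282). *Tgfbi*, which encodes a matrix protein named for its induction by TGF-β, had -1.69 (SE 0.192, adjusted p = 0.000979), and *Ccn2*, which encodes connective tissue growth factor, had -1.46 (SE 0.237, adjusted p = 0.00496). Toward ACI, *Id2*, which encodes an inhibitor of basic helix-loop-helix factors that TGF-β represses in epithelial cells, had 2.13 (SE 0.306, adjusted p = 0.0028), and its second probe set had 2.78 (adjusted p = 0.00554). *Tagln*, a smooth muscle gene, had 0.44 (SE 0.102, adjusted p = 0.0249), a call that was lost when any of ACI rats 1 to 3 or BN rat 1, 2 or 4 was left out (adjusted p = 0.0541 to 0.0647), with median centring (0.0982), a trended variance (0.0682) or without BN rats 4 and 5 (0.054). The fibrillar collagen genes of the list, *Col1a1*, *Col1a2* and *Col3a1*, which are also among the fibroblast markers, had -0.78, -1.76 and -0.74 without a call (adjusted p = 0.493, 0.107 and 0.051).

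Genes for BMP ligands, which belong to the same superfamily, and for BMP antagonists were called in both directions. Of 12 measured, 2 were higher in BN and 3 higher in ACI, beside 9.12% and 8.29% of all genes. *Bmp2* was 2.34 ± 0.234 in ACI rats, near background, and 6.18 ± 0.574 in BN rats (SD, n = 5 each), a level at least 4.53-fold lower in ACI rats (adjusted p = 9.94e-05); its second probe set was near background in both strains. *Bmp4* was likewise near background in ACI rats, at 2.35 ± 0.131, and at 4.43 ± 0.641 in BN rats (SD, n = 5 each), a level at least 1.35-fold lower in ACI rats (adjusted p = 0.00225, or 0.0817 with values under 4 set to 4). *Bmp3* was 5.95 ± 0.382 in ACI rats against a level near background of 3.51 ± 0.182 in BN rats (SD, n = 5 each), a level at least 3.87-fold higher in ACI rats (adjusted p = 0.000134). *Gdf10*, also called BMP3B, had 1.91 (SE 0.27, adjusted p = 0.00259), and *Bmp7* had 0.57 (SE 0.139, adjusted p = 0.032), a call that was lost without any ACI rat and without BN rat 2 (adjusted p = 0.0523 to 0.0763), and with quantile normalization (0.0787) or a trended variance (0.094).

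**Figure D4:**
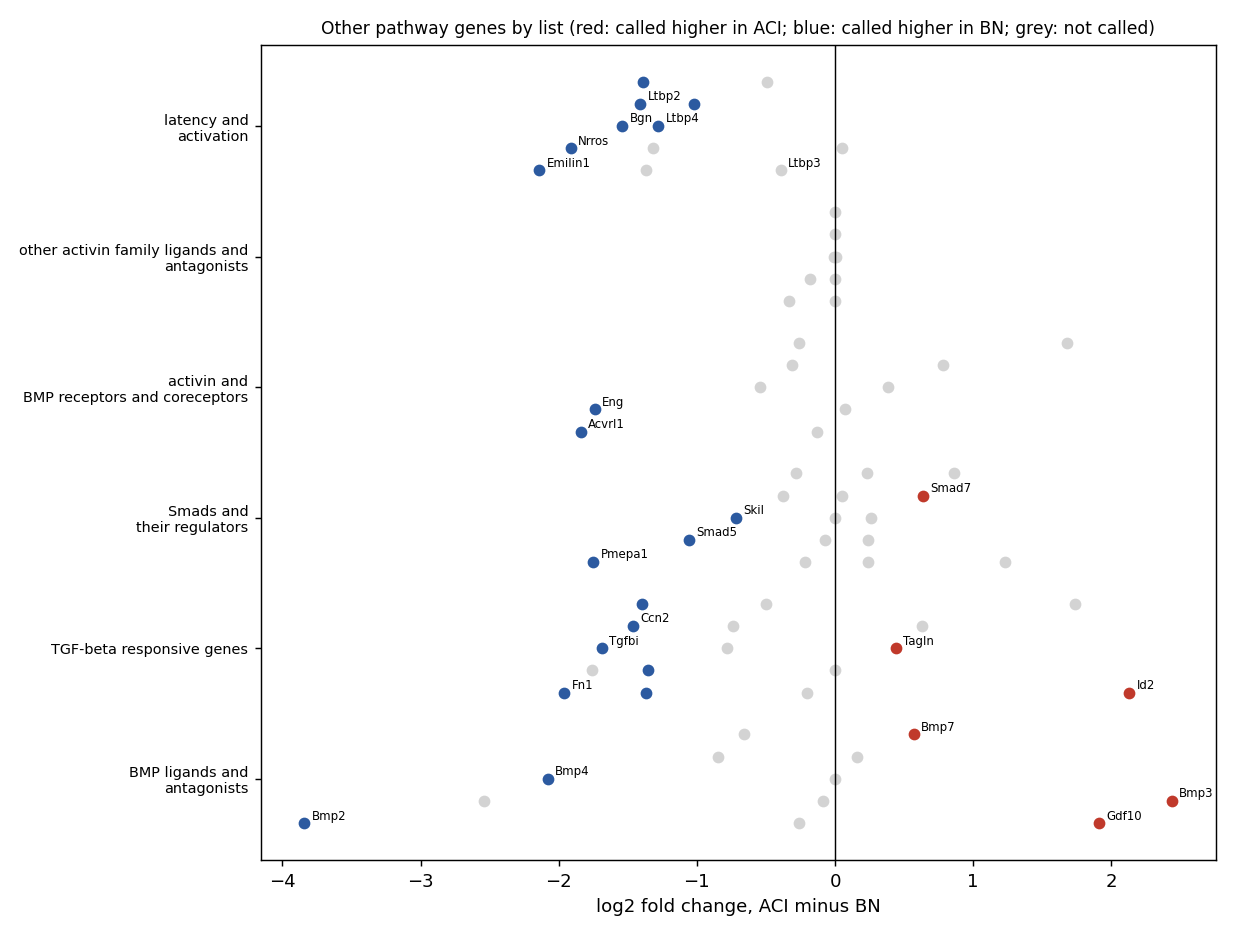
Log2 fold change, ACI minus BN (x axis), of the 74 measured genes of 6 pathway lists (y axis; points are spread vertically within a list for legibility); red marks genes called higher in ACI, blue genes called higher in BN and grey genes not called. All 7 calls in the latency and activation list lie on the BN side, and the BMP ligands run from *Bmp2* at -3.84 to *Bmp3* at 2.44.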

How the data were processed

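The authors used GCRMA 2.18.1, per the submitters' processing notes, to obtain log2 expression per probe set, and the deposited values were not changed further. The sources used here do not say which arrays were normalized jointly. After 57 control probe sets were left out, strain was fitted as the only term to 31042 probe sets with limma 3.58.1 under R 4.3.3, with Benjamini-Hochberg adjustment over all of them. The fit was tested on simulated data. Gene names came from the annotation of the platform, brought up to date through gene IDs in the RefSeq table of GRCr8; 20826 carry 1 symbol, 20758 of these were matched by gene ID, 436 carry several symbols and 9780 none. The number of arrays limits the precision. The rule for named genes took all members, up to 3 called genes per list and direction, and the 5 genes most like the most changed member. Members and lists were chosen with earlier results of these data known. Alternatives were a replicate block, the ID series as a block or alone, a mean filter and a floor at 4, quantile normalization, median centring, the methods' t-test, a trended and robust variance, averaging the probe sets of each gene (for the count of pathway genes) and leaving out each rat.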

Additional observations from a re-analysis of the deposited data

Results flagged for a closer look

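In 8 of 66 groups of 5 rats examined, for the members and named pathway genes, 1 rat stood apart by Dixon's criterion, which chance meets in about 1 group in 20. *Ltbp1* was at 6.06 in BN rat 5 and at 8.07 to 8.45 in the other BN rats. *Fst* (1387843_at) was at 6.99 in ACI rat 1 and at 5.58 to 5.67 in the other ACI rats. *Tgfbi* was at 10.40 in BN rat 3 and at 11.24 to 11.35 in the other BN rats, and *Bmp7* was at 5.17 in BN rat 1 and at 5.69 to 5.90 in the others. The remaining 4 concern levels near background. *Tgfbr3* was at 3.23 in ACI rat 2 (1387484_at), with the other ACI rats at 2.96, at 3.24 in ACI rat 5 (1369219_at), with the others at 2.55 to 2.71, and at 2.78 in BN rat 3 (1369219_at), with the others at 2.46 to 2.55. *Bmp2* was at 2.76 in ACI rat 1 and at 2.23 to 2.26 in the other ACI rats.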

How the results depend on the processing

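The 3930 calls over all probe sets became 1926 with a replicate block, 100 within ID series H and 6350 with BN rats 4 and 5 left out (chosen after seeing the data). They were 5261 with median centring, 4921 with the mean filter and 4855 within series S. With 1 rat left out they ran from 2598, without ACI rat 4, to 4618, without BN rat 5. Of the members, 3 were called higher in BN in every fit except those with a replicate block (2), in ID series S alone (2) and in series H alone (0), and none was called higher in ACI in any. The 26 calls among pathway genes became 14 with a replicate block and 1 within series H. With 1 rat left out they ran from 17, without ACI rat 4, to 30, without BN rat 5. They were 31 with median centring and with the mean filter, and 32 without BN rats 4 and 5. With the probe sets of each gene averaged there were 30. Replicate numbers do not pair the rats: deviations of same-numbered rats from their strain means correlated at -0.255 to 0.226. With that block *Inhbb* had an adjusted p of 0.0578. Series H holds 2 rats per strain. Fold changes of members that were not called changed sign: *Tgfb1* was -0.20 within series H and -0.17 to 0.53 with 1 rat left out; *Tgfb2* (1387172_a_at) was -0.59 within series S, -0.36 without BN rats 4 and 5, and -0.10 to 0.32 with 1 rat left out; *Tgfb3* was 0.01 within series S; within series H *Tgfbr3* (1387484_at) was -0.37, *Inhba* 0.42 and the probe sets of *Fst* 0.07 and 0.01; and *Tgfbr1* (1369504_at) was -0.01 with median centring. The cause was not tested. Levels near background limit *Tgfbr3* and the dimmer probe sets of *Tgfbr1* and *Inhba*.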

Other observations

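For 3 pathway genes not called by their representative probe sets, another probe set was called with the higher level in ACI rats; they were chosen after their values were seen. *Smad1*, which encodes a Smad of the BMP branch, had log2 fold changes of 0.86 (adjusted p = 0.06) and 1.84 (adjusted p = 0.0113). *Smad4*, which encodes the Smad shared by both branches, had 0.26 (adjusted p = 0.177) and 1.56 (adjusted p = 0.0401). *Smurf2*, which encodes a ubiquitin ligase that targets Smads and TGF-β receptors, had 0.05 (adjusted p = 1.0) and 2.28 (adjusted p = 0.0145). With *Id2*, given above, 4 of the 33 further probe sets of the listed genes were called. All 4 were higher in ACI, beside 6.79% of all probe sets called in that direction and 12.7% in either. Many of the 33 were near background in both strains, levels at which a difference could hardly show. Of the brighter probe sets over the whole array, those reaching 4 on average, 24.6% were called in either direction. Whether these 4 calls exceed the background was not tested.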
